A study of Homo sapiens with 12 samples.

Results

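The 9 genes described here, ID1, ID2, ID3, ID4, SMAD6, SMAD7, BMP4, TGFBI and SKIL, are response genes and components of TGF-β and BMP signalling. The set was chosen with earlier results of these data known, so its counts of called genes beside the shares of all genes are a description only. The 9 genes were taken by gene name from the 58721 genes of the deposited tables. They were measured by polyA RNA-seq in 2 human pancreatic cancer cell lines, Pa-Tu-8902 and MIA PaCa-2, engineered with a Tet-pLKO-puro vector that expresses a short hairpin RNA against GOT1, the cytosolic aspartate transaminase, when doxycycline (dox) is added (iDox-shGOT1). Each line was left untreated or given dox for 5 days, at a dose the labels write as 1 µM/mL and the study's methods give per mL in µg, with 3 libraries in each of the 4 groups and 12 in all. The untreated cells carry the same vector and no dox-treated cells without the GOT1 hairpin were analysed here, so dox and loss of GOT1 cannot be told apart. The labels number the libraries but do not say that they came from separate cultures, so p-values measure the spread between these libraries, which may be technical.

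TGF-β and BMP ligands bind paired type I and type II receptor kinases, which phosphorylate receptor SMADs that enter the nucleus with SMAD4. TGF-β and activin act mainly through SMAD2 and SMAD3, and BMPs through SMAD1, SMAD5 and SMAD9. The ID genes are the classical BMP targets: their proteins lack a DNA-binding domain and hold E proteins such as TCF3 and TCF12 away from DNA. SMAD6 and SMAD7 are inhibitory SMADs that feed back on the receptors, SMAD6 mainly on BMP receptors and SMAD7 on both branches. SKIL encodes SnoN, a corepressor that binds SMAD2, SMAD3 and SMAD4, and TGFBI encodes a secreted matrix protein named for its induction by TGF-β. The pathway is studied in pancreatic cancer because SMAD4 and the TGF-β receptors are recurrently mutated in this disease.

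SMAD complexes are known to bind the palindrome GTCTAGAC, and BMP-activated complexes bind the bipartite element in which GGCGNC is followed 5 bases later by GTCT. Both were searched on both strands in the 2000 bases upstream of 35116 RefSeq start sites (GRCh38.p14), 13 of which belong to the 9 genes. The matches at the response genes are shown because they lie upstream of genes whose counts changed with dox, with the motif in capitals and 24 bases on either side, or up to the start site.
ID1: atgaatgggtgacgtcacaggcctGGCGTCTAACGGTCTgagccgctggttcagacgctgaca
SKIL: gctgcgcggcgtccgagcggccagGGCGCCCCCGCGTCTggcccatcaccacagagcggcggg
SMAD6: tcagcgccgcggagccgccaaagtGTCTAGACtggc
SMAD7: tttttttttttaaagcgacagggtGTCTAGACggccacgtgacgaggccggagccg

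The ID1 sequence (chr20:31604354-31604416, plus strand) holds the bipartite element 911 to 897 bases upstream of the start site, and the SKIL sequence (chr3:170357133-170357195, plus strand) holds one 558 to 544 bases upstream. Of all start sites, 0.948% had this element within 2000 bases. The SMAD6 sequence (chr15:66702200-66702235, plus strand) holds the palindrome 12 to 5 bases upstream. Of all start sites, 1.17% had the palindrome within the 2000 bases searched and 0.182% within 250 bases. The SMAD7 palindrome (chr18:48952194-48952249, minus strand) lies 1260 to 1253 bases upstream, and 1.17% of start sites had it within 2000 bases. Neither motif was found in the windows of ID2, ID3, ID4, BMP4 or TGFBI. The related GC box GGCGCC, which also lies within the SKIL element, was found within 2000 bases upstream of 11 of the 13 start sites, in 8 of the 9 genes. Of all start sites, 38.7% had it. Start sites of the same gene can share a box, as those of BMP4 do, and the start sites were not matched for GC content. These matches are a description of the sequence and not of binding.

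Total counts were 26226537 to 43406137 per library, and the limit that a count of 0 leaves, 3 counts, came to 0.0691 to 0.114 CPM (counting error only). Libraries of 1 group differed by 2.25 to 27.3 times the sampling noise (chi-square per degree of freedom), and both pairs above 25 included untreated MIA PaCa-2 library 2. GOT1 fell in Pa-Tu-8902 from 4021 ± 302 to 161 ± 21.1 normalized counts and in MIA PaCa-2 from 2295 ± 141 to 83.1 ± 14.4 (SD, n = 3). The epithelial markers EPCAM, CDH1 and KRT7 were at 60.0 TPM or more in every Pa-Tu-8902 library and at 1.26 TPM or less in every MIA PaCa-2 library, where VIM, a mesenchymal marker, was at 3531 to 4218 TPM. The epithelial keratins were nevertheless abundant in MIA PaCa-2, with KRT8 at 1382 to 1667 TPM, KRT18 at 895 to 1283 TPM and KRT19 at 128 to 413 TPM. The mesenchymal cadherin CDH2 was at 0.56 to 1.16 TPM in Pa-Tu-8902 and at 0.01 TPM or less in MIA PaCa-2. Of 14 fibroblast, leukocyte, endothelial, acinar and islet markers, 12 stayed at 0.72 TPM or less in all libraries. The exceptions were COL1A2, at 192 to 398 TPM in MIA PaCa-2, and CD14, at 1.42 to 4.06 TPM in MIA PaCa-2 and 0.32 to 1.01 TPM in Pa-Tu-8902. With dox, COL1A2 was 1.62-fold higher, CD14 2.64-fold lower and KRT19 3.17-fold lower in MIA PaCa-2, and CDH1 was 1.81-fold and the fibroblast marker PDGFRB 3.31-fold higher in Pa-Tu-8902 (called by the rule given next). Other epithelial markers moved without a call. In Pa-Tu-8902, EPCAM was 1.15-fold higher, and KRT8 1.34-fold, KRT18 1.27-fold, KRT19 1.20-fold and KRT7 1.08-fold lower. In MIA PaCa-2, KRT8 was 1.07-fold, KRT18 1.24-fold and the scarce KRT7 2.63-fold higher. Their part in the results was not tested. Levels are given in TPM, which account for transcript length and allow genes to be set side by side. Normalized counts are the authors' expected counts scaled to a common library size over the 12 libraries. Unless another method is named, fold changes are from edgeR's quasi-likelihood test on the rounded expected counts, with standard errors (SE) on the log2 scale. Folds given as "at least" instead set a mean normalized count against a floor of 3 counts per library. A gene was called when its Benjamini-Hochberg adjusted p was under 0.01 and its fold change at least 1.5. In bulk RNA, fewer cells that express a gene and less RNA per cell cannot be told apart.

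**Figure D1:**
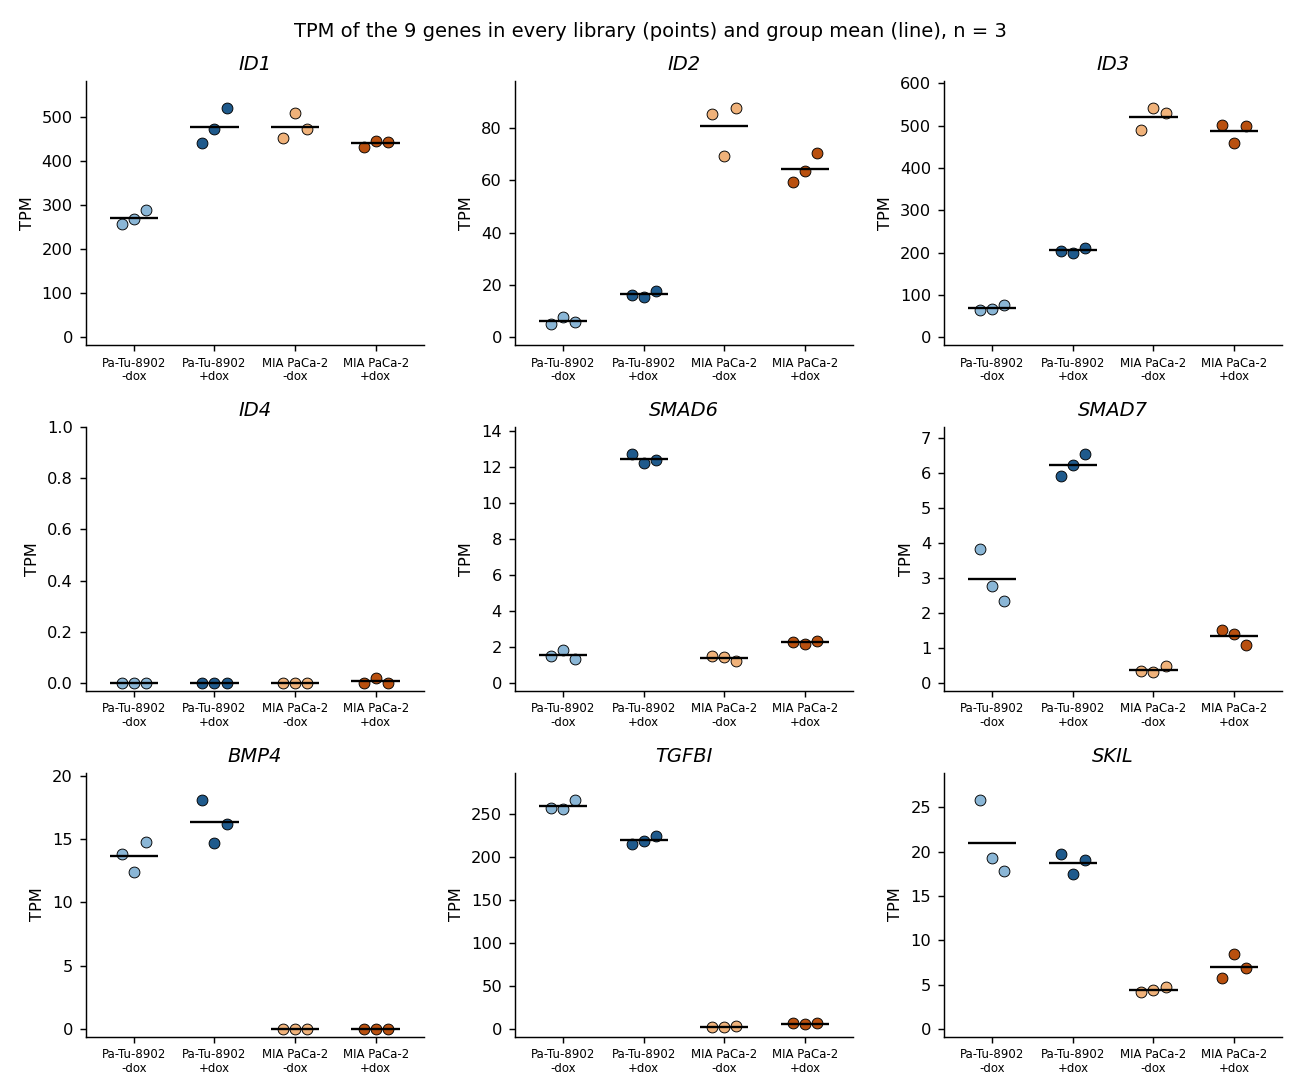
TPM of the 9 genes on linear axes that start at 0, with a point for each library and a line at the mean of each group of 3. In Pa-Tu-8902, ID1, ID2, ID3, SMAD6 and SMAD7 had every dox-treated library above every untreated one, and in MIA PaCa-2, SMAD6, SMAD7, TGFBI and SKIL did.

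In Pa-Tu-8902, the measured ID genes and both inhibitory SMADs rose with dox, while BMP4, TGFBI and SKIL did not pass the thresholds. SMAD6 rose 7.78-fold, ID3 2.82-fold, ID2 2.54-fold, SMAD7 2.19-fold and ID1 1.67-fold. Of the 9 genes, 8 had enough counts to be tested, 5 were called and all 5 were higher, against 16.3% of the 14949 genes tested, of which 9.22% were higher and 7.12% lower. The median log2 fold change of the 8 genes was 0.93, and that of all tested genes 0.0014.

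ID1 (ENSG00000125968, chromosome 20, 31605283 to 31606515 on the plus strand of hg38) was, with TGFBI, one of the most abundant of the 9 genes in untreated Pa-Tu-8902 cells. Its level was 256, 267 and 288 TPM in the untreated libraries and 439.6, 472 and 519 TPM with dox. The lowest dox-treated library was above the highest untreated one, and the normalized count went from 5096 ± 455 to 8500 ± 767 (SD, n = 3 each). The log2 fold change was 0.74 (SE 0.075), with an adjusted p of 1.66e-05.

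ID3 (ENSG00000117318, chromosome 1, 23557926 to 23559501, minus strand) stood at 64.3, 67.8 and 76.9 TPM without dox and at 204, 200.3 and 212 TPM with it. Its normalized count went from 1681 ± 182 to 4726 ± 142, and no library of one group came near the other group. The log2 fold change was 1.49 (SE 0.069, adjusted p = 6.73e-08). ID2 (ENSG00000115738, chromosome 2, 8678845 to 8684461, plus strand) was the lowest of the detected ID genes, at 5.22, 7.80 and 5.91 TPM without dox and 16.1, 15.5 and 17.6 TPM with dox. Its normalized count went from 146 ± 5.91 to 373 ± 25.3, a log2 fold change of 1.35 (SE 0.098, adjusted p = 1.61e-06). The antisense gene ID2-AS1 overlaps ID2 on the minus strand. The study's methods describe strand-specific libraries and default parameters for the alignment and counting. The defaults of RSEM do not use strand. If they were used, reads of the 2 genes cannot be told apart where they overlap.

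ID4 (ENSG00000172201, chromosome 6, 19837370 to 19842197, plus strand) had 0 counts in 11 of the 12 libraries and 1 count in dox-treated MIA PaCa-2 library 2. It was not tested, and its RNA was not detectable at this depth in either line.

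SMAD6 (ENSG00000137834, chromosome 15, 66702236 to 66782849, plus strand) had the largest fold change with dox of the 9 genes. It went from 1.49, 1.86 and 1.36 TPM in untreated Pa-Tu-8902 libraries to 12.7, 12.2 and 12.4 TPM with dox. The dox-treated libraries lay close together, at 1056 ± 12.9 normalized counts against 135 ± 16.1 in untreated cells. The log2 fold change was 2.96 (SE 0.090, adjusted p = 7.03e-09). An unnamed long non-coding gene overlaps SMAD6 on the same strand.

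SMAD7 (ENSG00000101665, chromosome 18, 48919853 to 48950965, minus strand) was at 3.82, 2.77 and 2.36 TPM without dox and at 5.91, 6.22 and 6.54 TPM with dox. Its normalized count went from 185 ± 13.9 to 402 ± 48.7, with a log2 fold change of 1.13 (SE 0.113, adjusted p = 1.48e-05). SMAD7 exceeded SMAD6 in TPM in each untreated Pa-Tu-8902 library, and SMAD6 exceeded SMAD7 in each dox-treated one.

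BMP4 (ENSG00000125378, chromosome 14, 53949736 to 53958761, minus strand), the only ligand among the 9 genes, was at 13.8, 12.4 and 14.8 TPM without dox and 18.1, 14.7 and 16.2 TPM with dox in Pa-Tu-8902. The groups overlapped in TPM and in normalized counts (496 ± 72.3 and 564 ± 14.8), and the log2 fold change of 0.19 (SE 0.098) did not pass, with an adjusted p of 0.132. An unnamed long non-coding gene overlaps BMP4 on the opposite strand.

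TGFBI (ENSG00000120708, chromosome 5, 136028988 to 136063818, plus strand) was as abundant as ID1 in untreated Pa-Tu-8902 cells. It was at 256, 255 and 266 TPM without dox and at 215, 218 and 224 TPM with dox, so every dox-treated library was below every untreated one. The normalized counts were 10905 ± 813 and 8780 ± 223, and the log2 fold change was -0.31 (SE 0.056). Its adjusted p of 9.29e-04 was under the threshold, but the change of 1.24-fold was under the fold limit, so TGFBI was not called. SKIL (ENSG00000136603, chromosome 3, 170357342 to 170396835, plus strand) was at 25.8, 19.3 and 17.9 TPM without dox and 19.8, 17.5 and 19.1 TPM with it. The SKIL groups overlapped, and the log2 fold change was -0.06 (SE 0.060, adjusted p = 0.426).

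In MIA PaCa-2, the genes that rose with dox were SMAD7, at 4.97-fold, TGFBI, at 1.95-fold, and SKIL, at 1.52-fold. The ID genes did not pass the thresholds, and their fitted changes were below 0. Of the 9 genes, 7 were tested and 3 called, all higher, against 12% of the 14589 genes tested, of which 4.36% were higher and 7.64% lower. The median log2 fold change was 0.37 for the 7 genes and -0.0089 for all tested genes.

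ID1 was at 452, 507 and 471 TPM in untreated MIA PaCa-2 cells and at 431, 445 and 443 TPM with dox. The dox-treated libraries were all slightly lower, but the log2 fold change of -0.19 (SE 0.093) did not pass, with an adjusted p of 0.122. ID3 overlapped between the groups, at 491, 541 and 529 TPM without dox and 502, 460.3 and 499 TPM with dox (log2 fold change -0.17, SE 0.088, adjusted p = 0.151). ID2 was at 85.6, 69.4 and 87.5 TPM without dox and at 59.5, 63.8 and 70.3 TPM with dox. In normalized counts, ID2 went from 1995 ± 120.5 to 1433 ± 90.8 with no overlap, and the log2 fold change of -0.47 (SE 0.072) had an adjusted p of 3.56e-04. At 1.39-fold it stayed under the fold limit and was not called.

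SMAD7 was scarce in untreated MIA PaCa-2 cells, at 0.34, 0.33 and 0.48 TPM from 21, 12 and 20 counts. With dox it stood at 1.53, 1.41 and 1.08 TPM, from 90, 78 and 82 counts and every dox-treated library was above every untreated one. The log2 fold change was 2.31 (SE 0.252, adjusted p = 3.18e-05), and it was 0.76 and still called by limma on log2(TPM + 1), a scale that understates changes of low genes. SMAD6 was at 1.52, 1.44 and 1.25 TPM without dox and at 2.26, 2.19 and 2.33 TPM with it. Although the groups did not overlap, the log2 fold change of 0.37 (SE 0.134) had an adjusted p of 0.0432, above the threshold of 0.01.

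TGFBI was at 2.22, 2.42 and 3.24 TPM in untreated MIA PaCa-2 libraries and at 6.43, 5.40 and 6.32 TPM with dox. Its normalized count went from 66.6 ± 13.4 to 129 ± 7.52, a log2 fold change of 0.96 (SE 0.175, adjusted p = 1.14e-03), and the groups did not overlap. SKIL was at 4.12, 4.39 and 4.68 TPM without dox and 5.80, 8.43 and 6.89 TPM with dox. The normalized count of SKIL went from 473 ± 12.2 to 717 ± 11.7, and its log2 fold change of 0.60 (SE 0.073, adjusted p = 6.57e-05) lay just above the fold limit. Without untreated library 3 the SKIL change was 0.57 (adjusted p = 3.30e-04), and without dox-treated library 2 it was 0.58 (adjusted p = 8.13e-04), both under the fold limit. BMP4 had 0 counts in 5 of the 6 MIA PaCa-2 libraries and 1 count in the other, and was not tested.

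**Figure D2:**
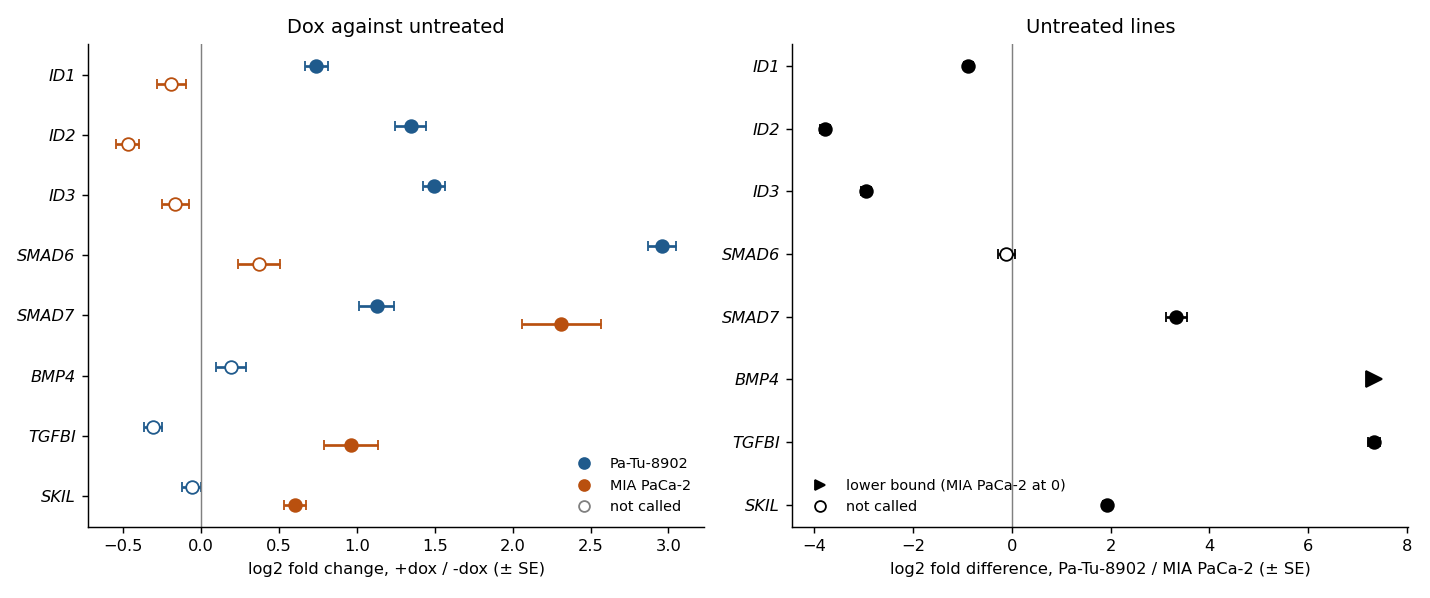
Log2 fold change with dox of the tested genes in Pa-Tu-8902 and MIA PaCa-2 (left) and log2 fold difference between the untreated lines (right), with SE bars, filled points for called genes and a triangle for the lower bound of BMP4. SMAD6 stood at 2.96 in Pa-Tu-8902 against 0.37 in MIA PaCa-2, while SMAD7 was above 0 in both lines.

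Whether the response to dox differed between the lines was tested as the change in Pa-Tu-8902 minus the change in MIA PaCa-2 over the 12 libraries. ID1, ID2, ID3 and SMAD6 responded more in Pa-Tu-8902, and SMAD7, TGFBI and SKIL more in MIA PaCa-2. Of 8 genes tested, 7 were called, 4 higher and 3 lower, against 10.4% of the 16544 genes tested (6.56% higher and 3.86% lower). The median over the 8 genes was 0.14, and over all tested genes -0.0015. The difference was largest for SMAD6, at 2.59 on the log2 scale (SE 0.158, adjusted p = 3.54e-09). It was 1.82 for ID2 (SE 0.115, adjusted p = 5.50e-09), 1.66 for ID3 (SE 0.123, adjusted p = 3.51e-08) and 0.93 for ID1 (SE 0.133, adjusted p = 5.22e-05). It was -1.27 for TGFBI (SE 0.152, adjusted p = 7.58e-06) and -0.66 for SKIL (SE 0.092, adjusted p = 4.13e-05).

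For SMAD7 the difference was -1.18 (SE 0.259, adjusted p = 2.46e-03), and this value changes with the scale and with 1 library of untreated MIA PaCa-2, where SMAD7 had 12 to 21 counts. On log2(TPM + 1) it was 0.12 (limma, adjusted p = 0.695), and without untreated MIA PaCa-2 library 2 it was -0.98 (adjusted p = 0.0105). The difference for BMP4, which was at or near 0 in MIA PaCa-2, did not pass (adjusted p = 0.429).

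The untreated lines differed in 7 of the 8 genes tested, 4 higher and 3 lower in Pa-Tu-8902, against 58.1% of the 15608 genes tested (28.9% higher and 29.3% lower). Untreated Pa-Tu-8902 cells had more TGFBI, BMP4, SMAD7 and SKIL, and untreated MIA PaCa-2 cells had more ID1, ID2 and ID3. The median log2 difference of the 8 genes was 0.91, and of all tested genes -0.029. TGFBI was 162-fold higher in Pa-Tu-8902 (log2 difference 7.34, SE 0.120, adjusted p = 1.39e-14). BMP4 was at least 162-fold higher, set against a floor of 3 counts per library because every untreated MIA PaCa-2 library had 0 counts. SMAD7 was 10.0-fold higher (log2 difference 3.33, SE 0.215, adjusted p = 7.77e-09, and 1.51 on log2(TPM + 1)), and SKIL 3.80-fold higher (log2 difference 1.93, SE 0.084, adjusted p = 1.36e-10).

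ID2 was 13.7-fold lower in untreated Pa-Tu-8902 than in untreated MIA PaCa-2 (log2 difference -3.78, SE 0.092, adjusted p = 3.84e-13) and ID3 was 7.75-fold lower (log2 difference -2.95, SE 0.099, adjusted p = 8.43e-12). ID1 differed less, at 1.84-fold (log2 difference -0.88, SE 0.097, adjusted p = 1.90e-06). SMAD6 overlapped between the untreated lines, at 135 ± 16.1 and 145 ± 21.1 normalized counts, with a log2 difference of -0.11 (SE 0.164, adjusted p = 0.555).

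Ordered by mean level over the 4 groups, ID1 was lowest in untreated Pa-Tu-8902 (270 ± 16.0 TPM) and the other groups lay at 439.6 ± 7.73 to 477 ± 28.0 TPM, where dox-treated Pa-Tu-8902 overlapped both MIA PaCa-2 groups. ID3 and ID2 kept the lines apart, since dox-treated Pa-Tu-8902, at 205 ± 5.89 TPM for ID3 and 16.4 ± 1.09 TPM for ID2, remained below every MIA PaCa-2 library. SMAD6 was highest in dox-treated Pa-Tu-8902 (12.4 ± 0.255 TPM), next in dox-treated MIA PaCa-2 (2.26 ± 0.070 TPM), and the untreated groups overlapped. SMAD7 ran from untreated MIA PaCa-2 (0.38 ± 0.084 TPM) through dox-treated MIA PaCa-2 (1.34 ± 0.233 TPM) and untreated Pa-Tu-8902 (2.98 ± 0.753 TPM) to dox-treated Pa-Tu-8902 (6.22 ± 0.315 TPM), with no overlap between neighbours. TGFBI and SKIL were higher in every Pa-Tu-8902 library than in any MIA PaCa-2 library.

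The authors' transcript estimates show which products of each gene these totals hold, as a share of the gene's TPM. For ID1, the transcript ID1-202 made up 94.6% to 96.6% of the mean in each group, and for ID3, ID3-201 made up 93.1% to 94.7%. The rise of SMAD6 in Pa-Tu-8902 was shared by several transcripts. The coding transcripts SMAD6-201 and SMAD6-203 went from 0.86 to 5.62 TPM and from 0.11 to 0.75 TPM, and SMAD6-205, annotated as a processed transcript without a coding frame, went from 0.46 to 4.81 TPM. SMAD6-204, annotated for nonsense-mediated decay, went from 0.15 to 1.25 TPM. SMAD7-202, annotated as a retained intron, made up 42.8% to 59.3% of SMAD7, and the coding transcript SMAD7-201 went from 1.10 to 2.48 TPM in Pa-Tu-8902 and from 0.06 to 0.49 TPM in MIA PaCa-2. TGFBI-201 made up 45.2% of TGFBI in untreated Pa-Tu-8902 and 0% in untreated MIA PaCa-2, where TGFBI-207 made up 61.6%. SKIL-201 was at 0% in both Pa-Tu-8902 groups and made up 19.4% of SKIL in untreated MIA PaCa-2 and 9.0% with dox. These shares are model estimates from overlapping transcripts and were not tested.

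Likeness of pattern was described by Pearson's r of log2(TPM + 1) over the 12 libraries, after each line was centred on its own mean, among the 10234 genes whose mean was 5 TPM or more. ID1 and ID3 were at 0.98 with each other, ID2 and ID3 at 0.93, and ID1 and ID2 at 0.92. The genes most like ID1 were TMSB4X (0.98), ID3 and CTSH (0.98), those most like ID3 were B3GNT3, NNMT and CCRL2 (0.99 each), and those most like ID2 were EML1 (0.99), CXADR (0.98) and PLPP6 (0.97). CLCF1 (0.98), PQBP1 and DDX39A (0.97 each) were nearest to TGFBI. AC016065.1 (0.94), POLR3E (0.89) and TTLL4 (0.88) were nearest to SKIL, and NUDT12 (0.93), IL20RA (0.89) and IL1A (0.88) to BMP4. SMAD6 and SMAD7 were below 5 TPM on average and were left out. The 12 points share their libraries and the dox groups, so a gene that differs between 2 groups is like any other that does.

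The other genes of the pathway, 95 in a list written from general knowledge with earlier results of these data known, changed in both directions. In Pa-Tu-8902, 74 were tested, 15 were called higher and 10 lower, and in MIA PaCa-2, 71 were tested, 14 were called higher and 9 lower. Of all genes tested with dox, 9.22% were called higher and 7.12% lower in Pa-Tu-8902, against 4.36% higher and 7.64% lower for MIA PaCa-2, and the counts of each role given next have these same shares as their background. Their median log2 fold changes were 0.071 and 0.11. The difference between the lines was called for 16 of 79 tested, 7 higher and 9 lower in Pa-Tu-8902, against 10.4% of all genes, of which 6.56% were higher and 3.86% lower.

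Among the other ligands, TGFB1 was lower with dox in Pa-Tu-8902, from 15.6, 16.5 and 15.5 TPM to 5.06, 7.04 and 6.87 TPM (log2 fold change -1.35, SE 0.115, adjusted p = 4.87e-06). TGFB2 (0.65, adjusted p = 6.09e-04) and INHBA, a subunit of activin A (0.97, adjusted p = 9.34e-03), were higher. In MIA PaCa-2, TGFB1 did not pass (log2 fold change -0.20, adjusted p = 0.0675), BMP6 was higher (1.24, adjusted p = 7.26e-03) and BMP8B lower (-0.71, adjusted p = 2.25e-03). The difference between lines was called for TGFB1 (-1.14, adjusted p = 2.05e-05). Several BMP ligands differed by line: BMP4 had 12.4 to 14.8 TPM in untreated Pa-Tu-8902 and 0 in untreated MIA PaCa-2, while BMP7 had 6.69 to 11.2 TPM in untreated MIA PaCa-2 and 0 to 0.03 TPM in untreated Pa-Tu-8902. BMP6 and BMP8B were detected in both untreated lines. In untreated Pa-Tu-8902, BMP6 was higher (log2 difference 2.44, adjusted p = 9.58e-07) and BMP8B lower (-1.44, adjusted p = 4.65e-06). BMP7 was at least 248-fold lower in Pa-Tu-8902, against the same floor.

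Of the 13 receptor genes, 12 were tested in Pa-Tu-8902 with 5 higher and 1 lower, and 9 in MIA PaCa-2 with 3 higher and 1 lower, beside 16.3% and 12% of all genes called in either direction. The BMP and activin type I receptor ACVR1 (ALK2) was lower in both lines, from 8.47, 8.55 and 7.48 to 3.36, 2.88 and 3.17 TPM in Pa-Tu-8902 (log2 fold change -1.50, adjusted p = 2.36e-07) and from 3.86, 2.86 and 3.71 to 1.07, 1.13 and 1.42 TPM in MIA PaCa-2 (-1.55, adjusted p = 1.46e-05). The type II receptors ACVR2A and ACVR2B and the coreceptor TGFBR3 (betaglycan) were higher in both lines. TGFBR3 had log2 fold changes of 0.84 (Pa-Tu-8902, adjusted p = 3.88e-07) and 0.86 (MIA PaCa-2, adjusted p = 1.21e-05). The coreceptor ENG (endoglin) rose in Pa-Tu-8902 from 0.42, 0.36 and 0.38 to 1.26, 1.46 and 1.42 TPM (log2 fold change 1.77, adjusted p = 2.78e-05), and in MIA PaCa-2, where it was at 16.3 to 21.8 TPM without dox, its change of 0.52 was under the fold limit. The remaining call in Pa-Tu-8902 was ACVRL1 (ALK1), at 0.04, 0.34 and 0.05 TPM without dox and 0.40, 0.22 and 1.01 TPM with dox, values that overlap in TPM. BMPR1A and BMPR2 were expressed in every library and did not pass in either line, with log2 fold changes of 0.01 and 0.10 in Pa-Tu-8902 and 0.11 and -0.03 in MIA PaCa-2. TGFBR1, the type I receptor for TGF-β, had log2 fold changes of -0.44 (Pa-Tu-8902, adjusted p = 7.21e-05) and -0.41 (MIA PaCa-2, adjusted p = 9.29e-04), both under the fold limit. TGFBR2, the type II receptor for TGF-β, was at 22.8 to 23.6 TPM in untreated Pa-Tu-8902 and 0.01 to 0.03 TPM in untreated MIA PaCa-2, at least 828-fold apart.

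**Figure D3:**
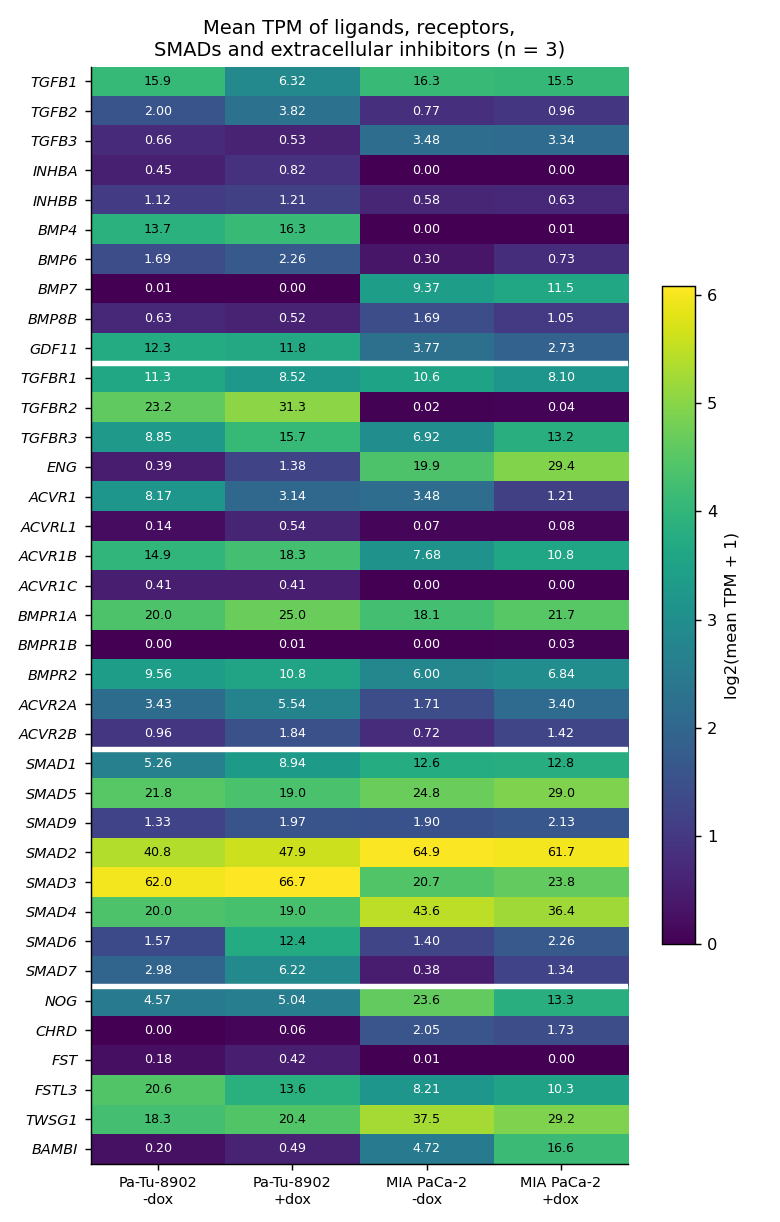
Mean TPM (printed in each cell, n = 3) of ligands, receptors, SMADs and extracellular inhibitors in the 4 groups, coloured by log2(mean TPM + 1). TGFBR2 and BMP4 are near 0 in both MIA PaCa-2 columns, and BMP7 and CHRD are near 0 in both Pa-Tu-8902 columns.

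Of the 6 receptor and common SMADs, SMAD1 was called in Pa-Tu-8902, from 5.12, 5.97 and 4.68 to 8.24, 8.88 and 9.69 TPM (log2 fold change 0.65, SE 0.107, adjusted p = 5.07e-04). In MIA PaCa-2 the log2 fold changes of these 6 genes lay between -0.22, for SMAD4, and 0.15, for SMAD5. The difference between lines was called for SMAD1 (0.71, adjusted p = 1.79e-03). In untreated cells SMAD3 was higher in Pa-Tu-8902 (log2 difference 1.42, adjusted p = 1.11e-09), and SMAD1, SMAD2 and SMAD4 were lower, with log2 differences of -1.30, -0.83 and -1.52. The ID partner TCF3 was at 91.6 to 95.1 TPM in untreated Pa-Tu-8902 and 71.8 to 83.0 TPM with dox (log2 fold change -0.44, adjusted p = 2.56e-04, under the fold limit). TCF3 was also lower with dox in MIA PaCa-2 (-0.32, adjusted p = 1.26e-03, under the fold limit). Its difference between lines was not called (-0.12, adjusted p = 0.377). TCF12 had a log2 fold change of -0.36 in Pa-Tu-8902, and TCF4 was at 0.02 TPM or less in all libraries.

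BAMBI, a decoy receptor, was higher with dox in MIA PaCa-2, from 4.88, 4.42 and 4.87 to 17.4, 16.7 and 15.7 TPM (log2 fold change 1.76, adjusted p = 1.02e-07). In Pa-Tu-8902 it was at 0.57 TPM or less and did not pass (1.23, adjusted p = 0.0141). The BMP antagonist NOG (noggin) was lower with dox in MIA PaCa-2 (-0.89, adjusted p = 2.03e-05), and in Pa-Tu-8902 FSTL3, which binds activin, was lower (-0.77, adjusted p = 1.19e-05). Of 10 genes that store and release latent TGF-β, 8 were tested in each line. In Pa-Tu-8902, 2 were called higher and 2 lower, and in MIA PaCa-2, 2 higher and 5 lower. The shares of all genes called in either direction were 16.3% and 12%. ITGAV was higher in both lines (1.00 and 0.63), and LTBP2 and LTBP4 were lower in both (LTBP4 -1.81 and -1.23). LTBP1 was higher in Pa-Tu-8902 (0.84) and lower in MIA PaCa-2 (-1.45), and the difference between the lines was 2.28 (adjusted p = 3.34e-06). ITGB8 was lower in MIA PaCa-2, at -2.46 (adjusted p = 3.47e-07), as was LTBP3 (-0.90, adjusted p = 1.97e-05), and FURIN was higher there (0.60, adjusted p = 4.83e-04).

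Among 12 intracellular regulators tested in each line, PMEPA1, which limits TGF-β signalling and is itself induced by it, was lower in Pa-Tu-8902 (log2 fold change -0.71, adjusted p = 4.39e-05). TGIF2, a corepressor, and SMURF2, a ubiquitin ligase that partners with SMAD7, were higher in MIA PaCa-2, at 0.78 and 0.79 (adjusted p = 4.76e-06 and 5.47e-06).

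Beside TGFBI and SKIL, 16 further TGF-β targets were tested in Pa-Tu-8902, with 3 called higher and 4 lower, and 15 in MIA PaCa-2, with 4 higher and 1 lower. The shares of all genes called in either direction were 16.3% and 12%, respectively. ADAM19, a membrane metalloprotease, fell in Pa-Tu-8902 from 14.0, 14.1 and 12.2 to 4.04, 4.79 and 3.87 TPM (log2 fold change -1.67, SE 0.069, adjusted p = 3.50e-08). COL1A1, the collagen I chain, rose from 3.76, 6.31 and 3.43 to 20.2, 17.5 and 21.2 TPM (1.87, adjusted p = 6.37e-08). In MIA PaCa-2, TGM2 (transglutaminase 2) rose from 28.4, 21.5 and 27.6 to 84.3, 89.3 and 76.5 TPM (1.67, adjusted p = 5.03e-08). TAGLN (transgelin) was called higher in both lines, by 1.23 in MIA PaCa-2 (adjusted p = 1.20e-05) and 0.74 in Pa-Tu-8902 (adjusted p = 1.68e-03). The difference between lines was not called for TAGLN (-0.49, adjusted p = 0.0785). The difference between lines was called lower in Pa-Tu-8902 for ADAM19 (-2.94) and TGM2 (-2.01), among others, and higher for BHLHE40 (0.82). ADAM19 was called higher in MIA PaCa-2 (1.29, adjusted p = 5.97e-04), opposite to its fall in Pa-Tu-8902. BHLHE40 was called lower in MIA PaCa-2 (-0.77, adjusted p = 4.61e-05) and did not pass in Pa-Tu-8902 (0.04, adjusted p = 0.657).

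Beside the ID genes, 5 further BMP targets were tested in Pa-Tu-8902, and the 2 called were higher, against 9.22% of all genes called higher and 7.12% lower. ATOH8, a basic helix-loop-helix factor, went from 1.97, 1.81 and 2.11 to 7.56, 8.59 and 9.85 TPM (log2 fold change 2.08, SE 0.109, adjusted p = 1.51e-07). UNC5B, a netrin receptor, went from 0.31, 0.39 and 0.32 to 3.08, 2.70 and 2.68 TPM (2.96, SE 0.117, adjusted p = 2.64e-08). UNC5B was also called in MIA PaCa-2 (0.64, adjusted p = 3.03e-03), the only one of 6 tested there, and the difference between lines was 2.32 (adjusted p = 8.56e-08). That difference was called lower in Pa-Tu-8902 for MSX1, a homeobox factor (-0.70, adjusted p = 6.63e-04), and did not pass for ATOH8 (0.77, adjusted p = 0.305).

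**Figure D4:**
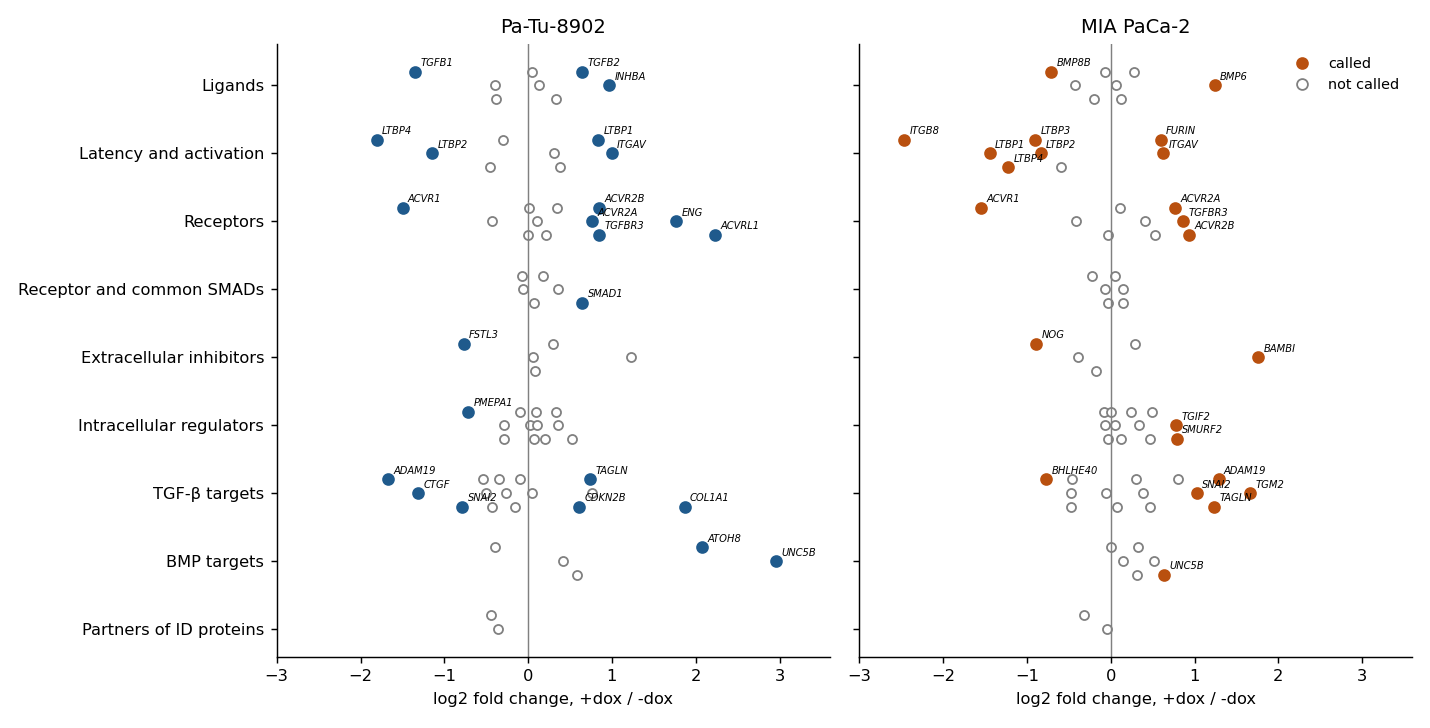
Log2 fold change with dox of the tested pathway genes other than the 9 and 1 that is not reported, by role, in Pa-Tu-8902 and MIA PaCa-2, with filled and named points for called genes. ACVR1 lies near -1.5 in both panels, and UNC5B at 2.96 and 0.64.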

How the data were processed

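The 12 polyA libraries were grouped by their titles. Per the study's methods and the labels, the authors trimmed paired reads with Trimmomatic 0.39 and ran RSEM 1.3.1 with STAR 2.5.2a on GRCh38 (hg38) with GENCODE annotation, and deposited expected counts and TPM per gene and transcript. The deposited expected counts (5.34% not whole) were rounded. They were tested with edgeR 4.0.16 in R 4.3.3 (TMM normalization, glmQLFit and glmQLFTest, a minimum of 10 counts in 3 or more libraries of the fit), with Benjamini-Hochberg adjustment over all tested genes. The thresholds, an adjusted p of 0.01 and a fold change of 1.5, are the study's. The smallest p an exact permutation test of 3 against 3 libraries allows is 0.1, so none was run. Results were recomputed with DESeq2 1.42.0, with edgeR on DESeq2 size factors, with other count filters and thresholds, with 1 fit of all libraries, with a replicate block, with limma 3.58.1 on log2(TPM + 1) and without each library in turn.

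All 9 genes are named. Of the 95 pathway genes, up to 2 called genes per role, direction and comparison with the smallest p are named, receptors, SMADs and ID partners may also be named where not called, and others where a short count is completed. The genes and lists were chosen with earlier results of these data known. Loci and overlaps are from GENCODE v44, a later release than the authors counted on, and start sites are from RefSeq, both on GRCh38. The fits were tested on simulated data. The deposited FPKM tables were not used. One listed gene enters the counts but is not reported here.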

Additional observations from a re-analysis of the deposited data

Results flagged for a closer look

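Of the 9 genes, 8 were tested for a difference in the dox response between the lines, and 7 were called. The test was edgeR's quasi-likelihood interaction test, with adjusted p under 0.01 and a fold of at least 1.5. Of all 16544 genes tested in this way, 10.4% were called. On the log2 scale, the change in Pa-Tu-8902 minus the change in MIA PaCa-2 was 0.93 for ID1, 1.82 for ID2, 1.66 for ID3 and 2.59 for SMAD6. It was -1.18 for SMAD7, -1.27 for TGFBI and -0.66 for SKIL. The calls of SMAD7 and SKIL did not hold under every alternative. That of SMAD7 depended on the scale and on a single library of untreated MIA PaCa-2, as described above. The ID1, ID2 and ID3 changes lay on opposite sides of 0 in the 2 lines, although in MIA PaCa-2 none of them was called (edgeR), with ID2 under the fold limit and ID1 and ID3 above the p threshold. SMAD6 and SMAD7 had fitted changes above 0 in both lines.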

How the results depend on the processing

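Results of single genes among the 9 were compared with the main fit 500 times under the alternatives and were unchanged in direction and call 487 times. The alternatives that only loosened a threshold reused the main fit, so in these no sign could change and no call could be lost. The exceptions were 6 changes of sign, 5 lost calls and 2 gained calls. The log2 difference of SMAD6 between untreated lines, not called, was 0.094 with limma on log2(TPM + 1), and -0.23 to 0.015 with each replicate left out in turn, above 0 without untreated Pa-Tu-8902 replicate 1 or 3. The difference of the response was 0.12 for SMAD7 and 0.23 for BMP4 with limma, and with a replicate left out -2.18 to 0.19 for BMP4, above 0 without dox-treated MIA PaCa-2 replicate 3. SKIL lost its call with limma in MIA PaCa-2 (0.56, adjusted p = 0.0210) and for the difference (-0.70, adjusted p = 0.0249); the cause was not tested. With no fold limit, TGFBI in Pa-Tu-8902 (-0.31) and ID2 in MIA PaCa-2 (-0.47) were called.

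Counts of the 9 genes called ranged over the alternatives from 5 to 6 for Pa-Tu-8902, 2 to 4 for MIA PaCa-2, 6 to 7 between untreated lines and 5 to 7 for the difference. Over the same alternatives, the counts of all genes called ranged from 1782 to 5692, 1082 to 3973, 6334 to 11385 and 1483 to 2799, in that order. With no fold limit, 43 pathway genes and 5692 of all genes were called in Pa-Tu-8902, against 37 and 3973 for MIA PaCa-2, and 2799 of all genes for the difference. With limma on log2(TPM + 1), the pathway genes called were 16 in Pa-Tu-8902 and 14 in the other line, where 1082 of all genes were called. With a replicate block, the counts of the 9 genes called stayed at 5, 3, 7 and 7 in the 4 comparisons and the all-gene counts became 2380, 1735, 8891 and 1611. Deviations of same-numbered libraries correlated at -0.103 to 0.081, which gave no sign of pairing but cannot exclude it. In the main fits the numbers were used only as names. The low counts of SMAD7, TGFBI and BMP4 in MIA PaCa-2 limit what the depth can show for these genes.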
